A study of Homo sapiens with 8 samples.

Results

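The G2/M and mitosis genes are 51 genes whose products carry a cell from the end of S phase through chromosome segregation and cytokinesis. They were picked by gene symbol from 19483 symbols on the array, and each gene was read from its brightest probe at 24 h. A probe was found for 50 of the 51 genes. The remaining gene, UBE2C, had no matched probe and was not analysed here. The cells were U87, an established line grown from a human grade IV glioma, studied after knock-down of RND3, an atypical small GTPase without GTP hydrolysis that opposes actin contraction. The comparison asks how the transcriptional response to loss of RND3 is carried by genes of cell division. Reverse transfection with lipofectamine RNAiMAX delivered either an siRNA to RND3 (siRND3) or a non-silencing control (siControl), and RNA was taken 24 h or 48 h later. There were 3 siControl and 3 siRND3 arrays at 24 h, and 1 of each at 48 h. A pair of RND3 oligos is named in the study's methods, but not the array each was used for, and nothing states that the replicates are independent transfections. The p-values therefore measure the spread between these arrays, which may be technical.

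Genes of this class are transcribed late in the cell cycle. In resting cells and in G1 they are held off by the DREAM complex, which binds a promoter element called the cell cycle homology region (CHR), and from S phase on they are switched on by B-MYB, FOXM1 and NF-Y, the last of which binds CCAAT boxes. CDK1 with cyclin B starts mitosis, the Aurora and Polo kinases build the spindle, the checkpoint proteins of the BUB family hold anaphase until all kinetochores are attached, and CDC20 with the anaphase-promoting complex ends it. In a bulk RNA sample a lower level can mean fewer cells in G2 and M or less RNA per cell, which cannot be told apart.

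RND3, the targeted gene, was examined before the other genes. Its log2 intensity was 11.88, 11.91 and 11.90 on the siControl arrays and 10.13, 10.18 and 10.41 on the siRND3 arrays at 24 h. This was 31.7% of the siControl level (log2 difference -1.66, SE 0.09, limma adjusted p 0.000339). At 48 h RND3 stood at 11.48 in siControl and 9.83 in siRND3 cells, or 31.9% of control. The scanner rated 68.3% to 70.7% of the probes of an array as well above background, and all 50 probes of the G2/M and mitosis genes were well above background on all 8 arrays. All arrays lay on 1 slide, with siRND3 in row 1 and siControl in row 2, so that an effect of slide row and one of knock-down cannot be told apart. The arrays at 24 h lay in columns 1 to 3 and those at 48 h in column 4. An effect of slide column and one of time cannot be told apart either. Of 8 markers of glioblastoma and mesenchymal cell lines, VIM, CD44, NES, FN1 and CHI3L1 were well above background on all 8 arrays. GFAP and SOX2, defining markers of astrocytic and stem-like glioma cells, were on none, and S100B was on 1. Of 15 markers of 5 other cell types, 10 were also well above background on all 8 arrays.

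Promoters are shown first because many of the genes hold regulatory elements that the choice by symbol did not use. Both elements were already known from promoters of this class of genes, so a higher share than over all promoters was foreseeable. RefSeq promoters (GRCh38.p14, 250 bases before to 50 after each transcription start) were found for 43 of the 51 genes, with 54 starts among them. The CHR was searched as TTTGAA or TTCGAA and the NF-Y box as CCAAT, on both strands (TTCGAA is its own reverse complement and was counted once). A CHR match lay within 50 bases of the start in 29 of the 54 promoters (53.7%), against 5.01% of all 35116 promoters. Anywhere in the 300 bases it was found in 66.7% against 16.4%, and CCAAT was found in 70.4% against 34.6%. At least 2 CCAAT matches were present in 46.3% of these promoters and in 10.8% of all promoters. The CHR matches bunched between 30 and 21 bases before the start, where 13 of the 54 promoters (24.1%) had one against 0.601% of all promoters, a window chosen after the positions were seen.

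**Figure D1:**
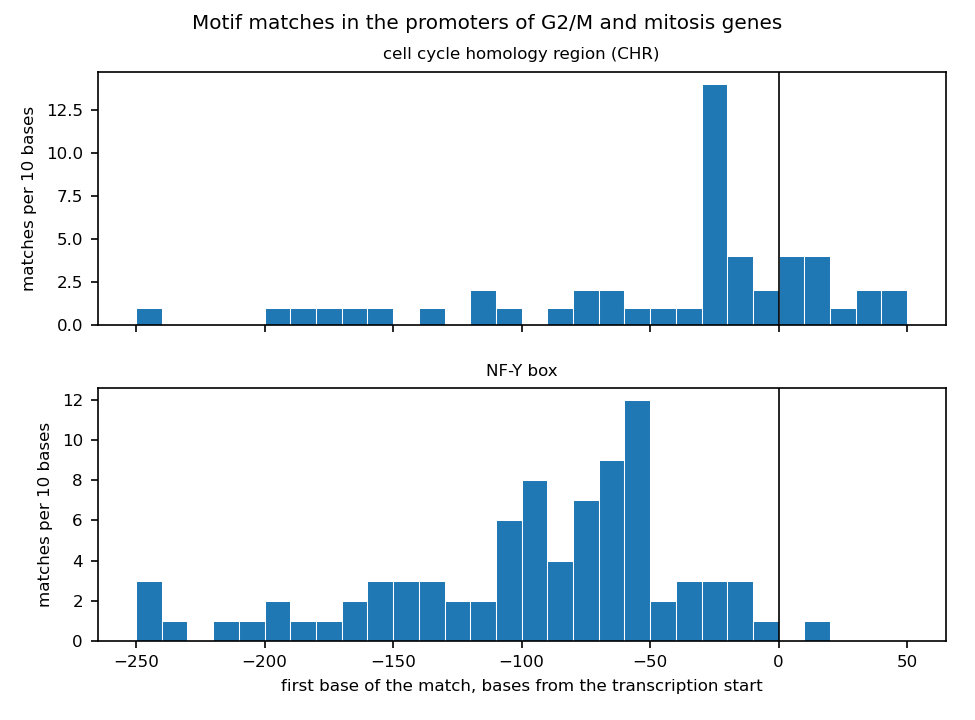
Position of the first base of each CHR match (upper panel, 51 matches) and NF-Y box match (lower panel, 84 matches) in the 54 promoters of G2/M and mitosis genes, in matches per 10 bases, against the distance from the transcription start at 0. The CHR matches are densest between 30 and 21 bases before the start, and overlapping promoters of genes with several starts can hold the same site.

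The stretches below run from 70 bases before to 30 bases after the start, 5′ to 3′ on the gene's strand, for the 8 genes with a promoter in the table among those that passed the test at 24 h. Capitals mark a CHR or CCAAT match on either strand. They are shown so that genes that fell can be set beside genes that rose.
HMMR (fell; chr5:163460562-163460661, + strand): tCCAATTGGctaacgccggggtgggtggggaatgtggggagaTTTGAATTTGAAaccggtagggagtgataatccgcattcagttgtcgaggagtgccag
BUB1B (fell; chr15:40160999-40161098, + strand): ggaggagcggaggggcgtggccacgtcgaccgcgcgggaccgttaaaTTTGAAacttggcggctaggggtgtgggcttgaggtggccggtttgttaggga
NUF2 (fell; chr1:163321884-163321983, + strand): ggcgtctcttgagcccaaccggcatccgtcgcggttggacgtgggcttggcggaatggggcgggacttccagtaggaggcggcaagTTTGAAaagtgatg
PSRC1 (fell; chr1:109283116-109283215, - strand): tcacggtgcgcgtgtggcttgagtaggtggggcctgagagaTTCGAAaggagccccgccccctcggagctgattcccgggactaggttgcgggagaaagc
DLGAP5 (rose; chr14:55191556-55191655, - strand): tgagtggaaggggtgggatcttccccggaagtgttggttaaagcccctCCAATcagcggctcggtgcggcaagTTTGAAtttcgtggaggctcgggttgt
CCNB2 (rose; chr15:59105076-59105175, + strand): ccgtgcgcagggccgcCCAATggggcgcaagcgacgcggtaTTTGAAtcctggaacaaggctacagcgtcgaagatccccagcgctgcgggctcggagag
G2E3 (rose; chr14:30559088-30559187, + strand): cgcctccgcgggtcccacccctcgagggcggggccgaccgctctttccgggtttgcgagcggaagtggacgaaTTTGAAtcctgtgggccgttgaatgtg
TACC3 (rose; chr4:1720561-1720660, + strand): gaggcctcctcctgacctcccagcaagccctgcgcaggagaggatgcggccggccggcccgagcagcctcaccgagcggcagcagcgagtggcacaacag
HMMR carries a tandem repeat of the element and an overlapping pair of CCAAT matches on opposite strands. The 4 genes that fell and 3 of these 4 genes that rose hold a CHR match in the stretch, and TACC3 holds none. Over the 28 genes with a CHR match within 50 bases of a start, the median log2 difference at 24 h was 0.13 (range -1.09 to 0.39), and over the 15 genes without one it was 0.12 (range -0.27 to 0.49).

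At 24 h most G2/M and mitosis genes lay slightly higher in siRND3 than in siControl cells. The share called lower was close to that of all genes tested. The log2 difference was positive for 36 of the 50 genes (72%), against 57.3% of all 14797 genes tested. Its median was 0.13, against 0.04 over all genes tested. At an adjusted p under 0.05 limma called 5 genes higher, which is 10% of them beside 6.71% of all genes tested, and 4 lower, which is 8% beside 8.31%. The remaining 41 genes were not called. The 3 siRND3 arrays all lay above the 3 siControl arrays for 22 genes (44.0%, against 24.1% of all genes tested) and all below for 6 (12.0%, against 17.5%). At an unadjusted p under 0.05, 17 genes were higher and 5 lower, together 22 of 50, against 33.1% of all genes tested. The numbers of genes called higher and lower were 10 and 4 when arrays were scaled to the 75th percentile in place of quantile normalisation, and 12 and 4 both under normexp background correction and on the authors' deposited values. Leaving out 1 array lowered the count of 5 to 1, 0 and 0 without siControl replicates 1, 2 and 3, and to 2, 2 and 1 without siRND3 replicates 1, 2 and 3.

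**Figure D2:**
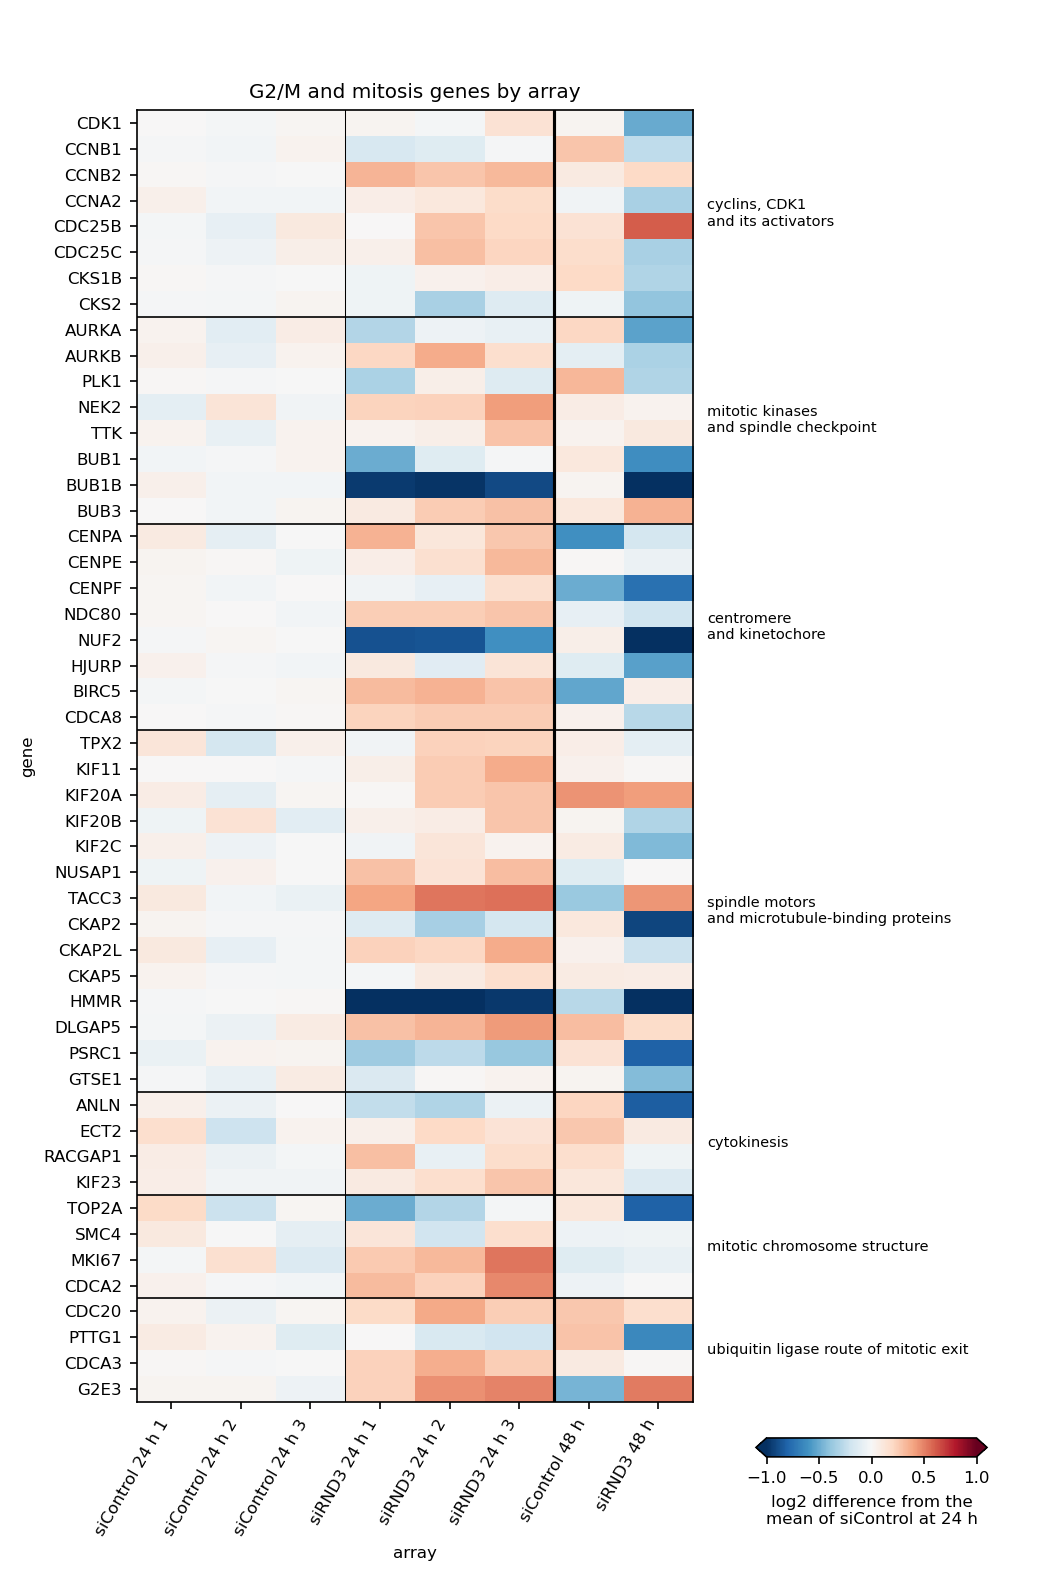
Log2 intensity of each of the 50 G2/M and mitosis genes (rows, by role) on each of the 8 arrays (columns), as the difference from that gene's mean over the 3 siControl arrays at 24 h; red is higher, blue is lower, and colours are full at 1 and -1. HMMR, BUB1B and NUF2 are deep blue on all 4 siRND3 arrays, most other genes are pale red on the siRND3 arrays at 24 h, and many turn blue on the siRND3 array at 48 h.

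The genes that fell encode proteins of the spindle and its checkpoint, and TACC3 and DLGAP5, which rose, also encode spindle proteins. HMMR, a hyaluronan receptor that also binds spindle microtubules, stood at 12.08, 12.09 and 12.11 in siControl and at 10.97, 10.92 and 11.13 in siRND3 cells at 24 h. It fell to 47.0% of control (log2 difference -1.09, SE 0.08, limma adjusted p 0.000771). BUB1B, which encodes the checkpoint protein BubR1, stood at 11.09, 11.01 and 11.01 in siControl and at 10.08, 10.06 and 10.14 in siRND3 cells. It fell to 51.9% of control (-0.95, SE 0.07, adjusted p 0.000742). In both genes the arrays of a group lay close together and far from the other group. NUF2, a subunit of the NDC80 complex that attaches microtubules to kinetochores, read 9.34, 9.38 and 9.35 in siControl and 8.49, 8.49 and 8.74 in siRND3 cells. It fell to 58.1% of control (-0.78, SE 0.09, adjusted p 0.00405). PSRC1, a microtubule-binding protein of the spindle, read 10.45, 10.56 and 10.55 against 10.17, 10.26 and 10.14 (-0.33, SE 0.07, adjusted p 0.0363). HMMR, BUB1B and NUF2 passed the threshold in each of 16 alternative analyses, whereas PSRC1 lost it without any 1 of the 6 arrays (adjusted p up to 0.138).

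**Figure D3:**
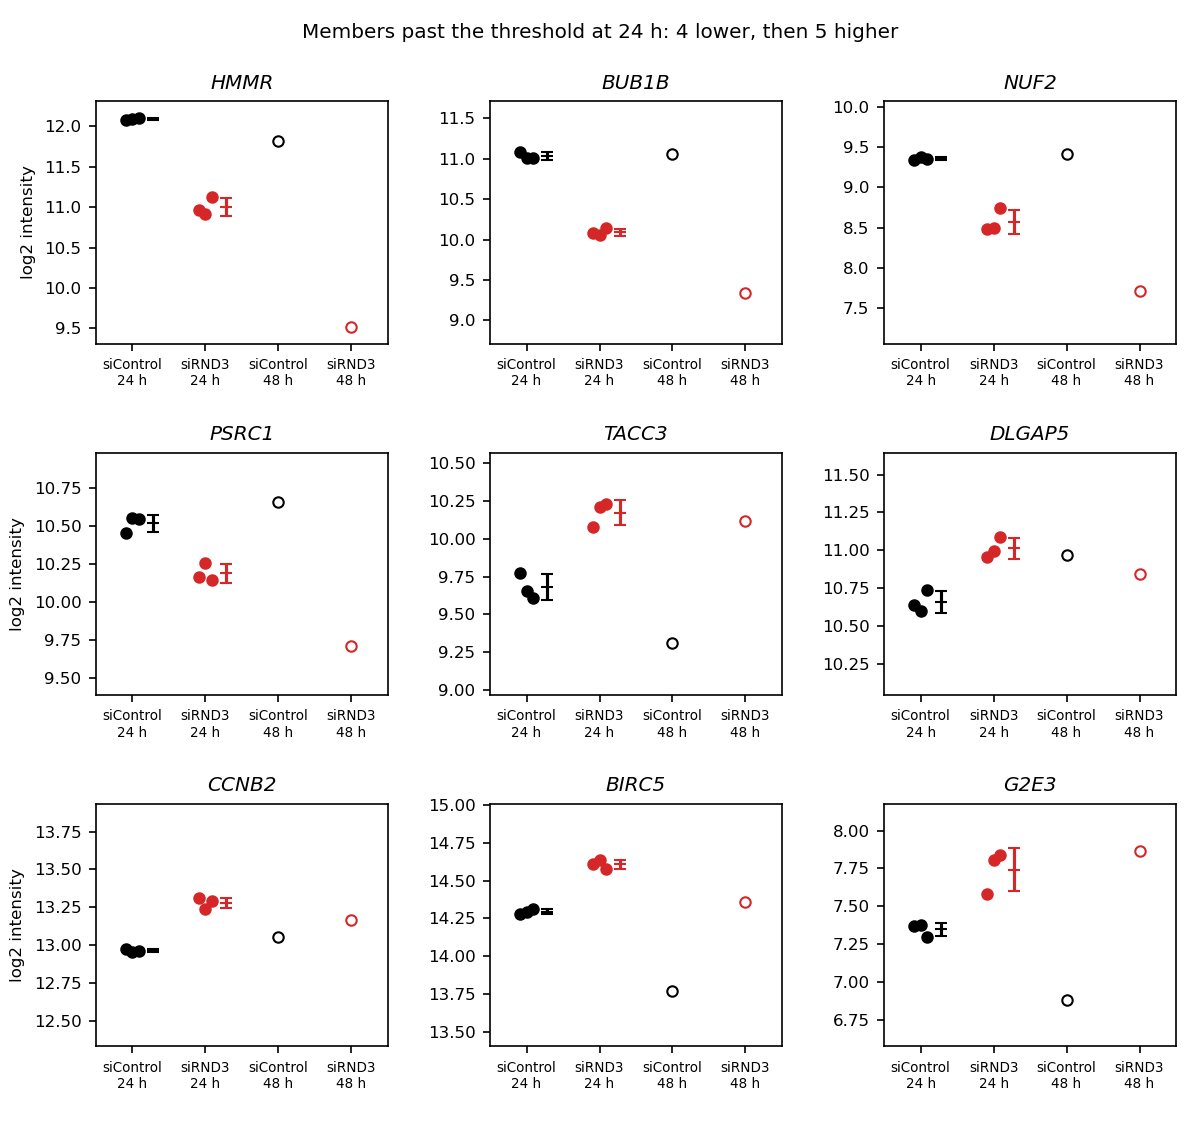
Log2 intensity of the 9 genes past the threshold at 24 h on each array, black for siControl and red for siRND3, filled at 24 h (3 arrays, with mean and SD beside them) and open at 48 h (1 array); axes differ between genes. The 4 genes that fell (HMMR, BUB1B, NUF2, PSRC1) lie lower still in siRND3 cells at 48 h. TACC3, CCNB2, BIRC5 and G2E3 stay above control at that time.

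The rises were smaller than the 3 largest falls. TACC3, which stabilises spindle microtubules with clathrin, stood at 9.77, 9.65 and 9.61 in siControl and at 10.08, 10.21 and 10.23 in siRND3 cells, a rise to 141% of control (0.49, SE 0.08, limma adjusted p 0.0150). DLGAP5, a kinetochore fibre protein, read 10.64, 10.60 and 10.74 in siControl cells against 10.95 to 11.09 on the siRND3 arrays (0.35, SE 0.08, adjusted p 0.0344). For both genes every siRND3 array lay above every siControl array. CCNB2, the second B-type cyclin, read 12.98, 12.96 and 12.96 against 13.31, 13.24 and 13.29 (0.31, SE 0.07, adjusted p 0.0297). BIRC5, which encodes survivin of the chromosomal passenger complex, read 14.28, 14.29 and 14.31 against 14.61, 14.64 and 14.58 (0.31, SE 0.07, adjusted p 0.0290). CCNB2 and BIRC5 both rose to 124% of the siControl level, with an SD of at most 0.04 in either group. G2E3, a ubiquitin ligase expressed in G2, read 7.37, 7.37 and 7.30 against 7.58, 7.80 and 7.84 (0.39, SE 0.09, adjusted p 0.0415). Its other probe went the opposite way. It had a mean log2 intensity of 4.39 in siControl cells and was not well above background on any siRND3 array at 24 h. There it read 2.62-fold lower (limma adjusted p 0.00489), so that the direction of G2E3 depends on the probe. TACC3 lost the threshold without siControl replicate 2 (adjusted p 0.0594) and without siControl replicate 3 (0.0701), and the other 4 lost it when most single arrays were left out.

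Among cyclins, CDK1 and its activators, 1 of 8 genes was called, CCNB2. CDK1, the kinase that starts mitosis, read 11.77, 11.74 and 11.79 in siControl and 11.79, 11.75 and 11.91 in siRND3 cells at 24 h, so the groups overlapped (0.05, SE 0.07, limma adjusted p 0.715). At 48 h CDK1 was 11.79 in siControl and 11.27 in siRND3 cells, a difference of -0.53. CCNB1, the major mitotic B-type cyclin, differed by -0.10 at 24 h (adjusted p 0.447) and by -0.53 at 48 h, and its second probe by -0.09 and -0.66. Its paralog CCNB2 differed by 0.31 and 0.11 at these times. CCNA2, cyclin A of S and G2 phase, differed by 0.12 at 24 h (adjusted p 0.326) and by -0.29 at 48 h. The small CDK-binding subunits CKS1B and CKS2 differed by 0.02 and -0.17 at 24 h, and by -0.49 and -0.35 at 48 h. A second probe of CKS1B differed by -0.02 at 24 h and by -0.46 at 48 h, so that its sign at 24 h depends on the probe.

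Among mitotic kinases and checkpoint genes, BUB1B was the 1 gene called of 8. AURKA, the centrosomal Aurora kinase, differed by -0.14 at 24 h (limma adjusted p 0.405) and by -0.74 at 48 h, when it read 12.48 in siControl and 11.74 in siRND3 cells. AURKB, the Aurora kinase of the passenger complex, differed by 0.25 at 24 h (adjusted p 0.120) and by -0.22 at 48 h. PLK1, the Polo kinase of mitotic entry, differed by -0.13 at 24 h (adjusted p 0.474) and by -0.63 at 48 h. BUB1, the kinase partner of BUB1B at the checkpoint, read 10.46, 10.47 and 10.52 in siControl and 9.99, 10.36 and 10.47 in siRND3 cells at 24 h. The siRND3 arrays of BUB1 were spread over a range that reached the siControl values (-0.21, SE 0.13, adjusted p 0.349), and at 48 h the difference was -0.73. NEK2, a centrosome kinase, had the highest difference of the group at 24 h (0.29, adjusted p 0.109) and a difference of -0.04 at 48 h, while its second probe differed by 0.11 and -0.43.

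In the centromere and kinetochore group 7 of 8 genes had a positive difference at 24 h, and NUF2 was the exception. NDC80, the partner of NUF2 in the same complex, read 12.46, 12.44 and 12.41 in siControl and 12.68, 12.68 and 12.71 in siRND3 cells (0.26, SE 0.06, limma adjusted p 0.0517), just short of the threshold. These partners thus lay on opposite sides of their controls at 24 h, and both were lower at 48 h (NDC80 by -0.12 and NUF2 by -1.69). Of the spindle group, 2 of 14 genes were called higher and 2 lower. The kinesins KIF20A, a cytokinetic motor, and KIF20B differed by 0.18 and 0.13 at 24 h, and by -0.03 and -0.32 at 48 h. CKAP2, a spindle microtubule protein, and its relative CKAP2L differed by -0.21 and 0.27 at 24 h (adjusted p 0.147 and 0.0938), and by -1.02 and -0.26 at 48 h.

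None of the 4 cytokinesis genes and none of the 4 genes of mitotic chromosome structure was called at 24 h by limma, with 0 and 2 of them at an unadjusted p under 0.05. KIF23, the motor of the central spindle, had the highest difference of the cytokinesis genes (0.18, adjusted p 0.210). ANLN, the scaffold of the contractile ring, read 9.86, 9.75 and 9.81 in siControl and 9.56, 9.50 and 9.75 in siRND3 cells at 24 h, with the highest siRND3 value level with the lowest siControl value (-0.20, SE 0.09, adjusted p 0.199). At 48 h ANLN read 10.02 and 8.98, which was 48.6% of control. TOP2A, the topoisomerase that untangles sister chromatids, differed by -0.27 at 24 h (SE 0.16, adjusted p 0.313) and by -0.92 at 48 h. MKI67, which encodes the proliferation marker Ki-67, read 10.59 to 10.88 in siControl and 10.99, 11.05 and 11.26 in siRND3 cells (0.37, SE 0.11, adjusted p 0.0843). All siRND3 values of MKI67 at 24 h lay above the siControl values, and its other probes differed by 0.56 and 0.34. At 48 h these 3 probes of MKI67 differed by 0.05, 0.32 and -0.23, so that its direction at 48 h depends on the probe. In the ubiquitin ligase route of mitotic exit, CDC20 differed by 0.27 (adjusted p 0.0764) and PTTG1, which encodes securin, by -0.11 (adjusted p 0.471) at 24 h. At 48 h CDC20 stood at -0.10 and PTTG1 at -0.93, the latter having read 15.17 in siControl and 14.24 in siRND3 cells.

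At 48 h, with 1 array a group, most of the genes lay below control. The difference was negative for 38 of the 50 genes (76%), against 44.5% of all genes tested. Its median was -0.23, against 0.06 over all genes tested. A positive difference at 24 h and a negative one at 48 h was seen for 24 genes (48.0%), against 13.3% of all genes tested. A further 12 genes were positive at both times, among them TACC3, BIRC5, CCNB2, G2E3, MKI67 and BUB3. The last 3 were so on their brightest probe but not on every probe. Another 14 genes were negative at both times, and none went from negative to positive. TACC3, BIRC5 and G2E3 (brightest probe) had larger differences at 48 h than at 24 h (0.81, 0.59 and 0.98), and CCNB2 a smaller difference (0.11). From 24 h to 48 h TACC3, BIRC5 and G2E3 changed by -0.37, -0.52 and -0.46 in siControl cells. In siRND3 cells they changed by -0.05, -0.25 and 0.13. Of the 24 genes that turned over, 1 (DLGAP5) had been called at 24 h, and 12 had siRND3 arrays all above the siControl arrays. Their differences were small at first, from 0.02 to 0.35, and ranged from -0.53 to -0.01 at 48 h. They came from 6 of the 7 role groups, with 8 spindle genes, 5 of the centromere and kinetochore and none of chromosome structure. CDC25C, a phosphatase that activates CDK1, had differences of 0.19 and -0.50, and KIF2C, a microtubule-depolymerising kinesin, of 0.04 and -0.52, examples chosen after their values were seen. Genes with a high difference at 24 h tended to have a high one at 48 h, with Pearson's r of 0.91 and a Spearman correlation of 0.81 over the 50 genes and r of 0.81 over the 46 genes left without those called lower, against r of 0.74 over all genes tested. These correlations describe genes measured on the same arrays, which are not independent replicates. No replicate check of the 48 h differences was possible.

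**Figure D4:**
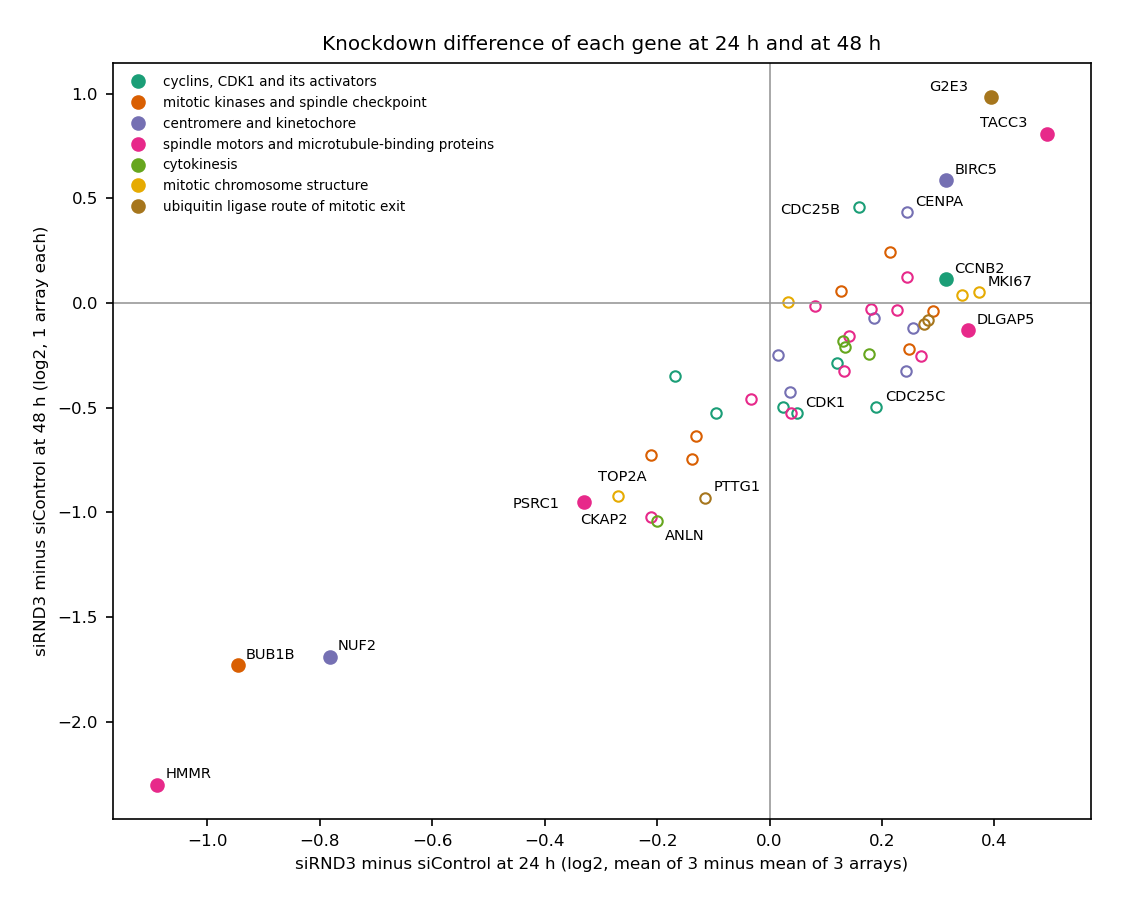
Log2 difference between siRND3 and siControl for each of the 50 genes at 24 h (horizontal axis, means of 3 arrays) and at 48 h (vertical axis, 1 array each), coloured by role; filled points passed the threshold at 24 h. The 24 genes at the lower right, right of 0 and below 0, were above control at 24 h and below it at 48 h, and HMMR, BUB1B and NUF2 lie apart at the lower left.

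The change of the knock-down effect between the times was tested in a limma model of all 8 arrays. The spread came from the arrays at 24 h alone and was taken to hold for those at 48 h. The test was passed by 2 genes, and in both the fall had deepened (4% of the 50 genes, against 2.33% of all genes tested). HMMR read 11.82 in siControl and 9.52 in siRND3 cells at 48 h, 20.3% of control, and its effect was lower than at 24 h by -1.21 (SE 0.16, adjusted p 0.0267). BUB1B read 11.06 and 9.34 at 48 h, 30.2% of control, and its effect was lower by -0.78 (SE 0.14, adjusted p 0.0436). NUF2 read 9.41 and 7.72, or 31.0% of control, and its effect was lower by -0.91 (SE 0.18, adjusted p 0.0586). None of the 24 genes that turned over passed this test in limma, the lowest adjusted p being 0.0765 for CDCA8, which encodes borealin of the passenger complex, and 13 of them had an unadjusted p under 0.05. Over all 50 genes 24 had an unadjusted p under 0.05 (48.0%, against 21.9% of all genes tested), and 44 had a lower effect at 48 h than at 24 h, whereas 47.4% of all genes tested did. The count of 2 became 9 under normexp background correction, 6 on the authors' deposited values, 0 without any 1 of the siControl replicates or siRND3 replicate 1, and 1 without siRND3 replicate 2 or 3.

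Between the times the levels moved mainly in siRND3 cells. The siControl difference (48 h minus 24 h) had a median of 0.06. It was positive for 35 of 50 genes (70%, against 48.5% of all genes tested). In siRND3 cells the median was -0.34 and 46 of 50 genes were negative (92%, against 46.3%). A positive change in siControl together with a negative change in siRND3 cells was seen for 32 genes (64.0%, against 17.2% of all genes tested). In siControl cells 1 gene passed the limma test as lower at 48 h, BIRC5 (-0.52, adjusted p 0.0374), which is 2% of the genes against 3.60% of all genes tested. This call was lost without any 1 of the 6 arrays at 24 h and under 75th percentile scaling. In siRND3 cells 14 genes passed as lower (28%, against 8.24% of all genes tested) and none as higher. These were HMMR, NUF2, CENPF, BUB1B, CKAP2, ANLN, HJURP, AURKB, CDK1, CDCA8, KIF2C, PSRC1, NDC80 and CCNA2. The decline of HMMR was the largest of these 14 (-1.49, SE 0.11, adjusted p 0.00272), followed by NUF2 (-0.85, adjusted p 0.0134) and CENPF (-0.76, adjusted p 0.0159), a large kinetochore protein. CDK1 (-0.55, adjusted p 0.0268) and AURKB (-0.57, adjusted p 0.0382) declined as well. The count of 14 was 5 without any 1 of the siControl replicates and 8 without siRND3 replicate 3. These contrasts use the same arrays as the test of the effect change and are no separate evidence. They cannot be told apart from differences between slide columns. At 24 h the medians over the 50 genes, as differences from the siControl mean, were 0.02, -0.02 and -0.00 on the siControl arrays and 0.05, 0.12 and 0.19 on the siRND3 arrays. At 48 h these medians were 0.06 in siControl and -0.21 in siRND3 cells, below all 6 arrays at 24 h.

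**Figure D5:**
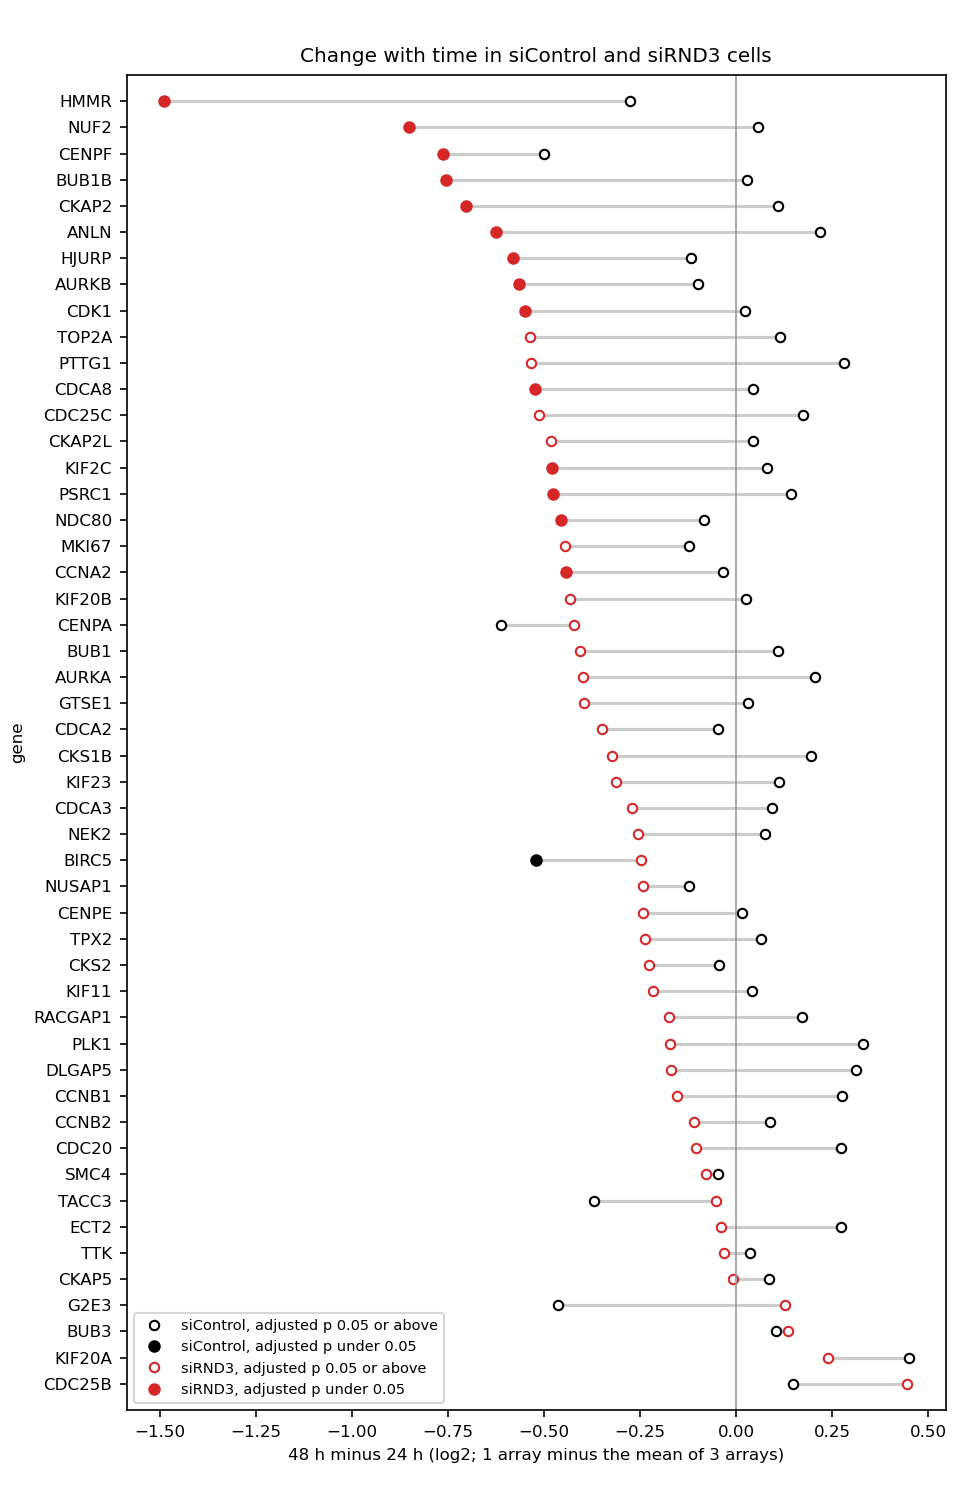
Change in log2 intensity from 24 h to 48 h (1 array minus the mean of 3 arrays) of each of the 50 genes in siControl (black) and siRND3 cells (red), ordered by the siRND3 change; filled points passed an adjusted p of 0.05. Nearly all red points lie left of 0 while most black points lie near it or to the right, and BIRC5 is the 1 filled black point.

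Further genes of the same pathways were taken from 6 lists of 120 genes, of which 119 were tested. At 24 h 16 of them were called higher and 13 lower by limma, beside 6.71% and 8.31% of all genes tested. The median difference over the 119 genes was 0.10 at 24 h and -0.06 at 48 h. The anaphase-promoting complex and its regulators were the only list with a positive median at 48 h (0.28, after 0.09 at 24 h). The list of regulators of G2/M transcription had 5 of 20 genes higher and 2 lower. MYBL2, which encodes B-MYB, rose (0.46, adjusted p 0.0448). E2F7, a repressor of E2F targets, fell (-0.54, adjusted p 0.0130), as did LIN54 (-0.52, adjusted p 0.0404), the DREAM subunit that contacts the CHR. FOXM1 and the NF-Y genes NFYA, NFYB and NFYC were not called at 24 h (-0.09, -0.04, -0.10 and -0.24). At 48 h these differed by -0.78, -0.21, -0.85 and -0.48, and MYBL2 by 0.79. Of the brakes on CDK1 and the G2 checkpoint, 2 of 13 rose and 3 fell. PKMYT1 and WEE1, kinases that both inhibit CDK1, went opposite ways (0.49, adjusted p 0.0140, and -0.42, adjusted p 0.0136), and GADD45B, a stress-induced inhibitor of CDK1, fell (-0.54, adjusted p 0.00954). WEE1 read 9.91 in siControl and 8.46 in siRND3 cells at 48 h, and its effect was lower than at 24 h by -1.03 (adjusted p 0.0267). Of the anaphase-promoting complex and its regulators, 2 of 19 rose and 3 fell. The largest were ANAPC16 (-0.52, adjusted p 0.0184), CDC23 (0.40, adjusted p 0.0327) and UBE2S (-0.40, adjusted p 0.0202), a ubiquitin-conjugating enzyme of the complex. The effect of UBE2S was lower at 48 h than at 24 h by -0.81 (limma adjusted p 0.0469). Of the called genes named from these 3 lists, MYBL2, LIN54 and CDC23 lost the threshold in 7 of 16 alternative analyses (adjusted p up to 0.131 among them). ANAPC16 and UBE2S lost it in 4, E2F7 and WEE1 in 3, PKMYT1 in 2 and GADD45B in 1.

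The list of further kinetochore subunits had 4 of 30 genes called higher and none lower, with a median of 0.22 at 24 h and -0.08 at 48 h. ZW10, which recruits dynein to kinetochores, read 7.77, 7.62 and 7.76 in siControl and 8.52, 8.58 and 8.69 in siRND3 cells (0.88, SE 0.08, limma adjusted p 0.00175) and had a difference of 1.61 at 48 h. SKA2 (0.60, adjusted p 0.00892) and CENPH (0.48, adjusted p 0.00787) were also higher. Of 20 further spindle and cytokinesis genes, 2 rose and 1 fell at 24 h, among them the motor KIF15 (0.53, adjusted p 0.00954), CEP55 of abscission (0.32, adjusted p 0.0358) and DEPDC1 (-0.49, adjusted p 0.0158). This list had the lowest median at 48 h (-0.40). Of its 20 genes 5 passed the limma test as having a lower effect at 48 h than at 24 h, against 2.33% of all genes tested. These 5, chosen for naming after their values were seen, were STMN1 (-1.48, adjusted p 0.0163), DEPDC1 (-1.31, 0.0255), ASPM (-0.94, 0.0440), PRC1 (-0.88, 0.0354) and SPAG5 (-0.83, 0.0466). Each call rests on 1 array a group at 48 h, and fits with 1 array left out are not reported for them. In condensin and cohesin 1 of 17 genes rose and 4 fell. NCAPD2, a condensin subunit, read 12.72, 12.67 and 12.60 against 11.40, 11.24 and 11.42 (-1.31, SE 0.08, adjusted p 0.000466). Its effect was lower at 48 h than at 24 h by -0.89 (limma adjusted p 0.0467). The cohesin release factor WAPL fell (-1.10, adjusted p 0.00106), and so did the cohesin subunit SMC1A (-0.71, adjusted p 0.00696). CEP55 lost the threshold in 9 of 16 alternative analyses (adjusted p up to 0.132), DEPDC1 in 4 and KIF15 in 1, and the other 6 genes named here with a call at 24 h in none. The number of these 119 genes called at 24 h, 29, dropped to 8, 12 and 8 without siControl replicates 1, 2 and 3, to 19 without siRND3 replicate 2 and to 18 without siRND3 replicate 3.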

How the data were processed

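Total RNA was measured on 8 Agilent 1-colour arrays (Cy3). The authors scanned them on an Agilent SureScan scanner and processed the scans with Agilent Feature Extraction 10.7.3.1. The scanner files they deposited give each spot's intensity (linear scale, background-corrected within the array). The authors also deposited log2 values, quantile-normalised per their methods. Their rank order in each array was that of the spot median signal, without background subtraction. Here log2 of the processed signal was quantile-normalised over the 8 arrays. Control spots and outlier spots were left out, spots of a probe were averaged, and a probe was tested if either group at 24 h had it well above background on its 3 arrays, as 28762 of 42405 did. The tests were run with limma 3.58.1 (R 4.3.3), with Benjamini-Hochberg adjustment over all of them at 0.05. Probes were named through RefSeq transcripts (GRCh38.p14), which 60.0% of the probes matched. At 24 h the 6 arrays were fitted without covariates; contrasts with 48 h came from a model of 4 groups with 4 residual degrees of freedom. In simulated data the fit recovered 75% of log2 changes of 1 and 92% of changes of 2 at 24 h. Smaller changes were not simulated.

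The genes, lists and tests were chosen with earlier results of these data known. Named were genes past a threshold, 12 set regulators, the highest at 24 h and lowest at 48 h of each role group, paralogs, and up to 3 called genes of each further list. FOXM1, the NF-Y genes and BUB3 were named in addition, after their values were seen. Alternatives were 75th percentile scaling, normexp with an offset of 50 (planned on the spot mean, run on the spot median), the authors' values, normalisation over 6 arrays, no filter and a stricter filter on dim probes, the mean of a gene's probes, SAM (the methods' test, at 5%), all 8 arrays with treatment and time, a replicate block, and each array at 24 h left out. Slide as a block could not be fitted, as there was 1 slide. The number of arrays limits the precision.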

Additional observations from a re-analysis of the deposited data

Results flagged for a closer look

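The effect of RND3 knock-down differed between 24 h and 48 h, by the limma test of that difference, for 2 of the 50 G2/M and mitosis genes. For HMMR the difference was -1.21 on the log2 scale (adjusted p 0.0267, range 0.00427 to 0.117 over the alternatives), as the log2 difference from siControl went from -1.09 to -2.30. For BUB1B it was -0.78 (adjusted p 0.0436, range 0.0204 to 0.154), from -0.95 to -1.73. Both tests rest on 1 array a group at 48 h. The groups of 3 arrays were too small to be examined for single outlying arrays.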

How the results depend on the processing

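The numbers of G2/M and mitosis genes called depended on the normalisation and on single arrays, and the directions mostly did not. Genes called higher at 24 h (5) were 10 under 75th percentile scaling, 12 under normexp, 12 on the authors' values, 8 with the stricter filter, 0 with the replicate block, and 0 to 2 with 1 array left out. Genes called lower (4) numbered 3 to 5 in all alternatives. Genes whose effect differed between the times (2) were 9 under normexp, 6 on the authors' values, 4 with the stricter filter, 0 with the replicate block and 0 to 1 with 1 array left out. Genes lower at 48 h in siControl cells (1) were 0 under 75th percentile scaling, 3 under normexp, 3 on the authors' values, 2 with the stricter filter, 0 with the block and 0 with any array left out. Genes lower at 48 h in siRND3 cells (14) were 0 with the block and 5 to 12 with 1 array left out. Of the further pathway genes, 29 were called, 10 with the block and 8 to 23 with 1 array left out. The median at 24 h (0.13) became 0.0551 with all 8 arrays in the fit, which gives 1 knock-down difference over both times. CKS1B reversed to -0.00531 under normexp, -0.00758 on the authors' values, -0.11 with all 8 arrays and, among the fits with 1 array left out (-0.000259 to 0.0545), without siRND3 replicate 3. CDK1 reversed to -0.0944 with all 8 arrays, and G2E3 to -0.50 as the mean of its probes. The G2E3 mean averages a probe that rose and a probe that fell, and the values from all 8 arrays include the pair at 48 h. The causes of the remaining reversals were not tested. The count of genes above control at 24 h was 31 to 36, and of those below at 48 h 37 to 38, in the alternatives that gave them for single probes. The 31 came from the fit with all 8 arrays, which is not a difference at 24 h alone. RND3 stayed called throughout, from -1.74 to -1.60. Deviations of same-numbered arrays at 24 h from their group means correlated at 0.00178, -0.0116 and 0.128, and not every array correlated best with its own number. With so few arrays a group this check cannot exclude a pairing by replicate number. Same-numbered arrays at 24 h shared a slide column. The median without the 4 genes called lower, an alternative chosen after seeing the data, was 0.15 at 24 h and -0.20 at 48 h. All 50 genes were well above background.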
